A study of Drosophila melanogaster with 18 samples.

Results

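The comparison described here set control S2R+ cells kept at 14 °C against the same cells kept at 30 °C. It used 6 of the 18 arrays of the series, namely the 3 titled lacZ RNAi at 14 °C and the 3 titled lacZ RNAi at 30 °C. Of 32162 probes on the array design, 20738 were compared, namely those with signals well above background on 2 or more of the 3 arrays of 1 temperature or of both. A gene symbol was found for 14001 of these probes, which stood for 9474 genes.

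S2R+ cells are an established Drosophila melanogaster line of embryonic origin that adheres to the dish and carries features of phagocytic blood cells. All cells of both groups had been treated with double-stranded RNA of lacZ, a bacterial gene with no counterpart in the fly, at 25 °C before culture aliquots were moved to the final temperature for 24 h. More cells had been plated for the cooler temperature, with the aim of similar densities at harvest. The other groups of the series were lacZ RNAi at 25 °C and H2Av RNAi at 14, 25 and 30 °C, the latter with double-stranded RNA of His2Av, which encodes the fly's variant of histone H2A.

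Flies cannot hold their body temperature, so their cells follow that of the surroundings. Warmth speeds up biochemical reactions and growth, and it also unfolds proteins, against which cells raise molecular chaperones, the heat shock proteins. Cold slows division, stiffens membranes and destabilises microtubules. Both temperatures compared here lie on either side of the usual culture temperature of the line, so a higher level at 14 °C is equally a lower level at 30 °C.

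Signals are given as log2 of the scanner's processed signal after quantile normalisation, so that 1 unit is a doubling. Signals of different probes cannot be set against each other, since each probe binds its transcript with its own strength. Changes are those at 14 °C minus those at 30 °C, with standard errors (SE) and adjusted p-values from limma, and each group had 3 arrays. Each array had between 19169 and 21362 probes well above background. Correlations between arrays ran from 0.9541 to 0.9938 within a group and from 0.9388 to 0.9649 across groups. The array 30 °C replicate 2 stood farthest from its group mean, with a median deviation of 0.345 against 0.169 and 0.23 for the other arrays at 30 °C and 0.113 to 0.137 at 14 °C. Every group had been hybridised to a separate slide, so the effects of slide, scan and temperature cannot be told apart, and whether the replicates were separate cultures is known only from their description as replicate experiments, so that the p-values measure the spread between these arrays.

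The identity of the cells was checked first. All 15 blood cell and S2R+ markers listed for the check, among them srp, zfh1, crq and Pvr, were well above background on all 6 arrays, and their summed linear signal was 216000 to 224000 at 14 °C and 201000 to 250000 at 30 °C. Of 17 markers of muscle, neuron, glia, germ line, gonad, epithelium, fat body and gland, 16 had a named probe, 6 were well above background on all 6 arrays (Mhc, elav, nSyb, vas, bam and Yp2) and 2 were not on any (Lsp1alpha and Lsp2). Their summed signal was 3590 to 4490 at 14 °C and 3100 to 5740 at 30 °C. Without elav, whose probe gave most of it, the sum was 564 to 707 at 14 °C and 882 to 1350 at 30 °C, so that it was higher on all warm arrays. Each sum can be set only against the same sum at the other temperature, since each probe binds with its own strength. With piwi, a further germ line marker, 10 markers of other cell types passed the filter, and 1 was called higher at 14 °C (Yp2, 1.24) and 3 lower (tin, -3.64, nSyb, -1.51, and piwi, -1.17). With normexp 0 were called higher and 1 lower. The part of these markers in the results below was not tested. RpL32, a ribosomal protein gene often used as a reference, changed by 0.01 (SE 0.11, adjusted p = 0.938).

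Transcript levels differed between the temperatures for a large share of the probes. A probe was called when its adjusted p was below 0.05 and its change at least 2-fold, and 4205 of 20738 probes were called (20.3%). At 14 °C, 2037 were higher (9.82%) and 2168 lower (10.5%), and the median change over all compared probes was -0.0033. Among the called probes, the 3 arrays of one temperature lay wholly apart from those of the other for 4064. Changes of at least 4-fold were seen for 621 probes in the higher direction and 523 in the lower, and changes of at least 8-fold for 180 and 87. Probes without any signal well above background at one temperature made up 304 of the higher and 217 of the lower calls. Leaving out 30 °C replicate 2 gave 4139 calls, of which 3405 were shared with the 4205. Correcting the background with normexp in place of the scanner's own subtraction gave 2204 calls, with 1106 higher and 1098 lower. Here and below, normexp included an offset of 50 added to every signal. Such an offset by itself makes the log2 changes of dim probes smaller, and its share in the lost calls was not tested.

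**Figure D1:**
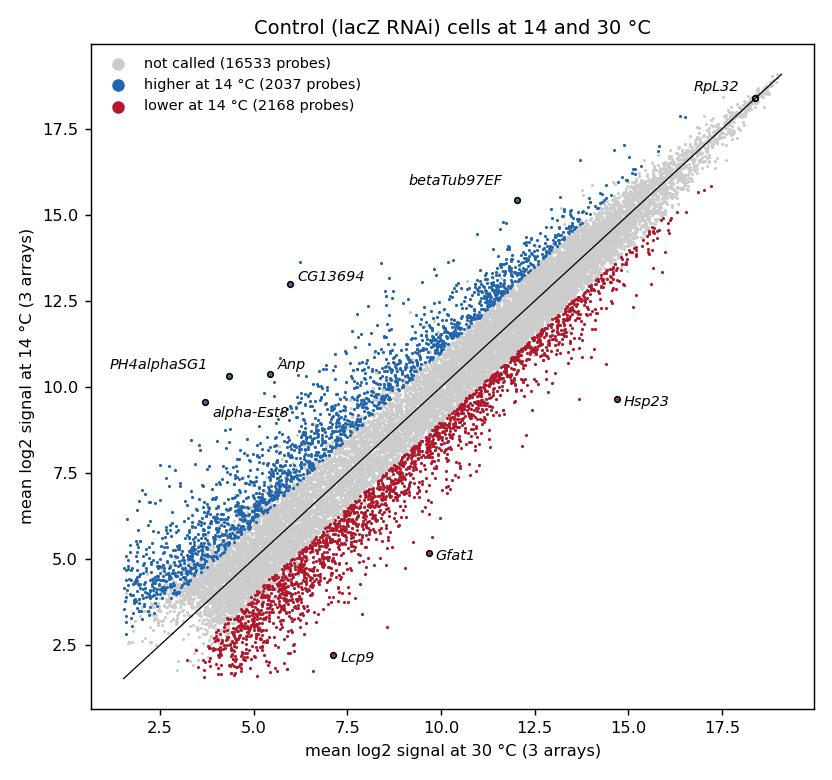
Mean log2 signal of the 3 arrays at 14 °C (vertical axis) against that of the 3 arrays at 30 °C (horizontal axis), with 1 point for each of 20738 probes and the line of equal signals. The 2037 blue points were called higher at 14 °C and the 2168 red points lower, and CG13694 and Hsp23 lie far from the line while RpL32 lies on it.

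Among genes with a symbol, CG13694 had the largest rise. Its signals were 12.59, 13.15 and 13.18 at 14 °C and 5.99, 6.27 and 5.64 at 30 °C, a change of 7.01 (SE 0.25, adjusted p = 7.7e-10) or 129-fold. All 14 °C arrays lay more than 6 units above all 30 °C arrays, and the mean at 25 °C was 8.85. The rises that followed belonged to enzymes. PH4alphaSG1 encodes a subunit of prolyl 4-hydroxylase, the enzyme that modifies prolines of collagen. It had signals of 10.25, 10.34 and 10.35 at 14 °C and of 3.77, 5.53 and 3.69 at 30 °C, where 1 of 3 arrays was well above background, and changed by 5.98 (SE 0.42, adjusted p = 3.97e-07). The gene alpha-Est8, a member of the cluster of alpha-esterase genes, had 9.59, 9.17 and 9.92 against 2.38, 4.76 and 3.95, again with 1 of the 30 °C arrays well above background, and changed by 5.86 (SE 0.53, adjusted p = 2.65e-06). In both genes the groups were far apart, and 30 °C replicate 2 was the highest of the warm arrays. Over the alternative ways of processing listed at the end, the change was as small as 3.595 for PH4alphaSG1 and 2.937 for alpha-Est8. Both calls were kept.

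Next in size stood genes of varied roles. Anp encodes andropin, an antibacterial peptide of the male reproductive tract, and rose by 4.93 (SE 0.31, adjusted p = 1.93e-07). Its signals of 10.48, 10.61 and 10.03 at 14 °C stood clear of 5.30, 5.78 and 5.25 at 30 °C, with a mean of 8.06 at 25 °C. Tat, which encodes tyrosine aminotransferase, the first enzyme of tyrosine breakdown, had 9.62, 9.92 and 9.90 against 5.03, 5.69 and 5.08, a change of 4.54 (SE 0.30, adjusted p = 2.2e-07). The arrays of each temperature lay close together for this gene, with no overlap between the temperatures. The remaining genes among the 12 largest rises were CG34033 (4.59), nompB (4.53), the juvenile hormone binding protein gene Jhbp15 (4.34), the lipase gene Lip4 (4.32), CG6231 (4.28), UGP (4.14) and the alkaline phosphatase gene Alp11 (4.07). For nompB, whose product carries cargo in cilia, and for Jhbp15, fewer than 3 of the 30 °C arrays were well above background. Over the alternatives the change was as small as 2.265 for nompB, 1.723 for Jhbp15 and 2.07 for Alp11, with the calls kept. UGP makes UDP-glucose, the sugar donor of glycogen synthesis. It rose by 4.14 on 1 probe only, and its other probes changed by 0.56 and 0.34 and were not called.

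Hsp23, a small heat shock protein, fell most. Its signals were 9.11, 9.93 and 9.89 at 14 °C and 13.72, 15.06 and 15.28 at 30 °C, a change of -5.04 (SE 0.44, adjusted p = 2.23e-06) or 33.0-fold. The groups were separated by more than 3 units, and the mean at 25 °C was 11.22. Gfat1 encodes an enzyme that opens the hexosamine pathway, which supplies sugars for glycoproteins and chitin. It had 4.42, 5.38 and 5.71 at 14 °C against 8.59, 10.73 and 9.68 at 30 °C and changed by -4.50 (SE 0.60, adjusted p = 6.99e-05). The related gene Gfat2 had changes of -0.42 to -0.06 over the alternatives and was not called. Of 8 measured genes of this pathway 1 was called, with a median change of -0.21. Cib2, a calcium-binding protein gene, had 3.55, 3.66 and 3.04 against 8.13, 7.90 and 7.67 and changed by -4.49 (SE 0.32, adjusted p = 4.57e-07). At 14 °C only 1 array was well above background for Cib2, whereas all 3 were at 30 °C. Over the alternatives the change was as small as -1.953 for Cib2 and -2.93 for Gfat1, with the calls kept.

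The other large falls were those of CG31974 (-4.28), mspo (-4.13), the cytochrome P450 gene Cyp4d2 (-3.86), CG18249 (-3.80), CG6790 (-3.75), Ddx56 (-3.66), tin (-3.64), CG30099 (-3.57) and CG3698 (-3.56). CG3698 was well above background on 1 array at 14 °C, so that its value there is close to background, and with normexp its change was -1.01. Over the alternatives the change was as small as -1.386 for tin and -1.636 for CG30099, with the calls kept. mspo encodes a secreted protein of the spondin family and had 5.56, 5.34 and 6.002 at 14 °C and 9.36, 10.22 and 9.72 at 30 °C. The homeobox gene tin, known for heart development, had 4.003, 3.78 and 3.51 against 7.27, 7.99 and 6.95. For both genes the warm arrays were all above the cool ones, and tin was one of the markers of another cell type in the check above. Ddx56, an RNA helicase gene, fell by 3.66 on 1 probe and had -0.41 on its other, which was not called.

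**Figure D2:**
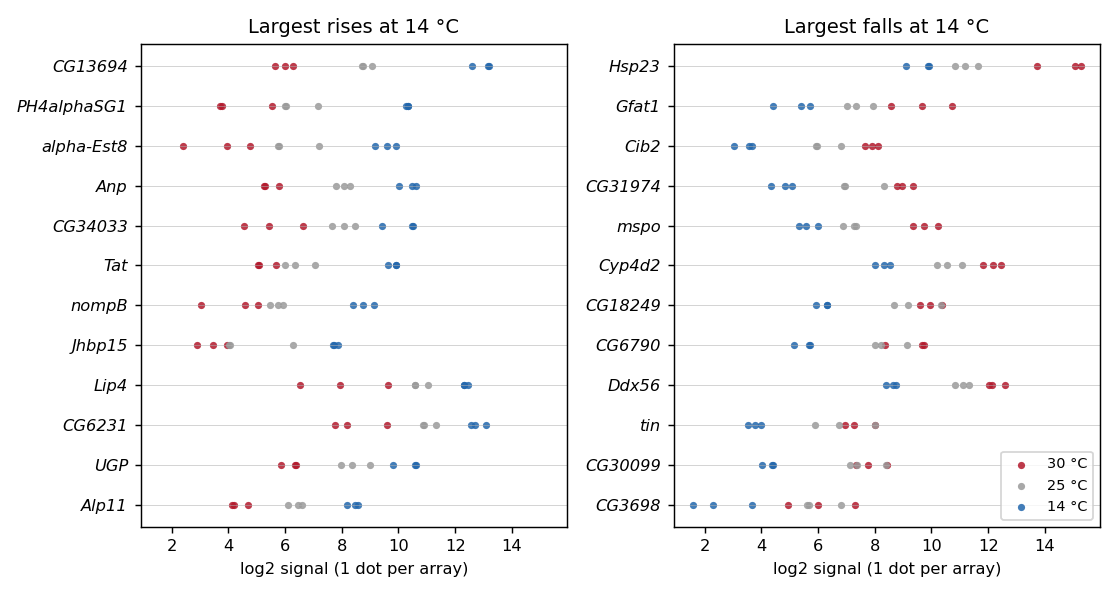
Log2 signal on each lacZ RNAi array (horizontal axis, 1 dot per array, 3 per temperature) for the 12 genes with the largest rise (left) and the 12 with the largest fall (right) at 14 °C. In each gene the blue dots of 14 °C and the red dots of 30 °C do not overlap, and the grey dots of 25 °C are shown for reference.

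For transcripts without a signal well above background at one temperature, only a lower bound of the fold can be given. The bound sets the brighter group's mean against the lowest signal that counted as above background on each array of the other. PH4alphaNE1, a further prolyl 4-hydroxylase gene, was at least 19.8-fold higher at 14 °C, with signals of 7.32, 7.52 and 7.20 where the 30 °C arrays had 2.34, 3.23 and 2.39 (adjusted p = 6.24e-07). CG31140 was at least 24.9-fold higher, Bfc 21.3-fold, the accessory gland peptide gene Acp53C14b 14.0-fold and CG15498 13.8-fold. Probes of CG31140 did not behave alike, since 2 of the others changed by only 0.12 and were not called. In the other direction, the cuticle protein gene Lcp9 was at least 18.8-fold lower at 14 °C, with 1.88, 2.84 and 1.89 against 6.98, 7.55 and 6.81 (adjusted p = 1.6e-06). Bounds of 9.83-fold for dcma, 9.21-fold for the innexin gene zpg, 8.70-fold for the cohesin gene SA2 and for the phosphodiesterase gene Pde6, and 8.69-fold for CG12693 followed. The bounds rest on the scanner's own background subtraction. With normexp, PH4alphaNE1 had a change of 1.52, CG31140 1.84, Bfc 1.64, Acp53C14b 1.18 and CG15498 1.13, all called but smaller than the bounds. Likewise, Lcp9 had a change of -1.36 and was called, whereas dcma, zpg, SA2, Pde6 and CG12693 had changes of -0.74 to -0.95 and were not called.

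Gene groups were described by 1 probe per gene, that with the highest mean signal. Over all 9474 genes, 19.2% were called, 9.15% higher at 14 °C and 10.1% lower, with a median change of -0.016, and these shares are the background for each count below. The groups ranged from DNA replication, with most members called, to groups with no call.

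**Figure D3:**
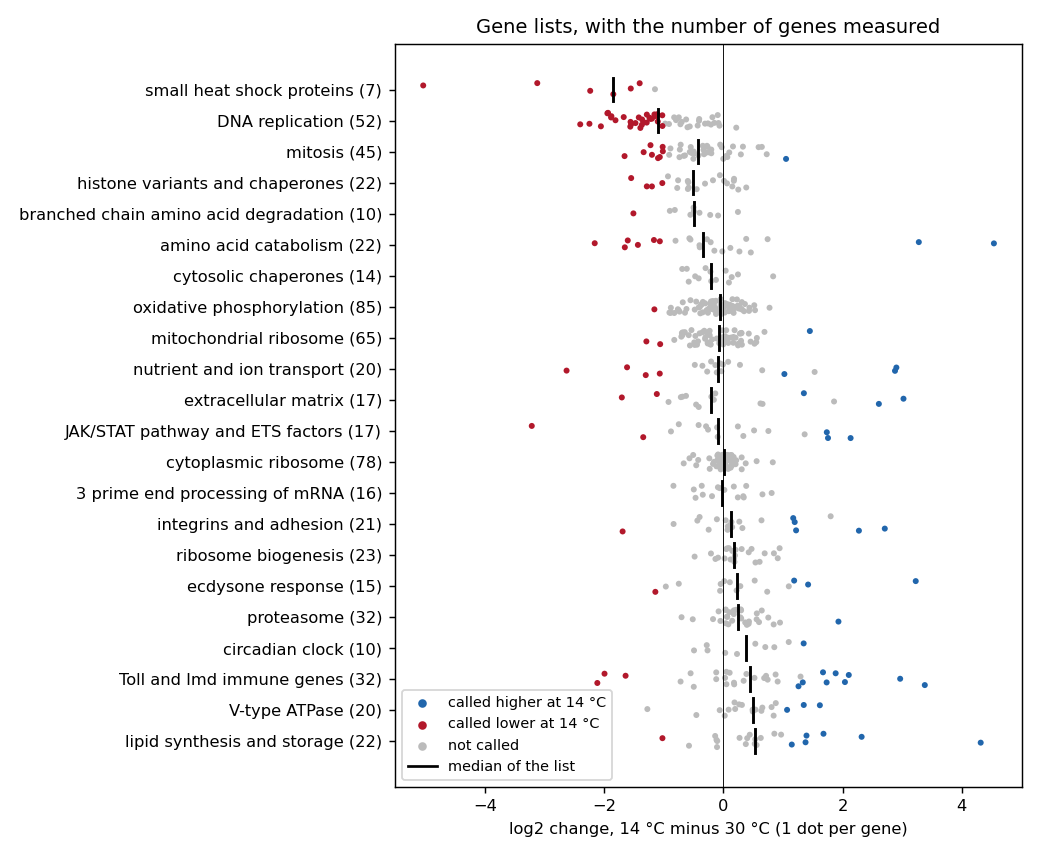
Change between 14 and 30 °C on the log2 scale (horizontal axis) for each measured gene of 22 gene lists (vertical axis, with the number of genes measured), with 1 dot per gene and a bar at the median of the list. Dots of DNA replication and small heat shock protein genes lie mostly to the left of 0, and those of V-type ATPase and lipid genes mostly to the right.

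DNA replication genes were lower in the cool cells. Of 52 measured genes 29 were called lower and 0 higher, and the median change was -1.11. Prim1, the catalytic primase subunit, had 9.91, 9.39 and 9.34 at 14 °C against 11.96, 11.97 and 11.94 at 30 °C and changed by -2.41 (SE 0.21, adjusted p = 1.9e-06). Orc6 of the origin recognition complex changed by -2.25 (SE 0.25, adjusted p = 1.24e-05), and the genes of the replicative helicase Mcm2, Mcm3, Mcm5, Mcm6, Mcm7 and dpa by -1.24 to -1.94. For Prim1 the cool arrays lay well below the warm ones, while its 25 °C mean of 11.97 lay within the range at 30 °C. E2f1, the transcription factor that drives S phase genes, was not called and had a change of 0.22 (adjusted p = 0.386), and geminin, an inhibitor of origin licensing, had -0.41 (adjusted p = 0.0557).

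Mitosis genes were called less one-sidedly, with 8 of 45 lower, 1 higher and a median change of -0.42. The kinetochore gene Mis12 fell by 1.66 (SE 0.24, adjusted p = 0.000142) and Nuf2 by 1.23 (SE 0.19, adjusted p = 0.000266). stg, the Cdc25 phosphatase that admits cells to mitosis, had 13.20, 12.98 and 13.41 at 14 °C against 14.65, 14.40 and 14.57 at 30 °C and changed by -1.34 (SE 0.19, adjusted p = 0.000122). Kmn1, also of the kinetochore, was the gene that rose, by 1.05. The cyclin genes CycB and CycA had changes of 0.06 and -0.55 and were not called. Of 22 genes of histone variants and histone chaperones 4 were called lower, namely cid, the centromeric histone, and the Caf1 genes of all subunits of the chromatin assembly factor that follows the replication fork.

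Small heat shock protein genes were called lower for 6 of 7 genes, with a median of -1.85. Besides Hsp23, Hsp22 had 9.93, 11.39 and 11.31 at 14 °C against 12.82, 14.86 and 14.33 at 30 °C, a change of -3.13 (SE 0.55, adjusted p = 0.000568). The signals of Hsp22, Hsp23 and Hsp27 were lowest on replicate 1 at both temperatures, and the temperatures did not overlap. The constitutive chaperones Hsp83 and Hsc70-4 had changes of 0.24 and 0.04 and were not called. In the group of 14 cytosolic chaperones 0 were called.

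Genes of the extracellular matrix changed in both directions, with 3 of 17 called higher, 2 lower and a median of -0.20. The matrix is the net of secreted proteins on which cells sit, and laminins, collagen IV and perlecan are its main parts in basement membranes. trol encodes perlecan and had 14.56, 15.21 and 14.49 at 14 °C against 11.71, 11.61 and 11.88 at 30 °C, a change of 3.02 (SE 0.34, adjusted p = 1.51e-05). All cool arrays were above all warm ones by more than 2 units. Timp, the inhibitor of matrix metalloproteinases, had 9.42, 10.12 and 9.85 against 5.92, 8.36 and 7.27 and changed by 2.61 (SE 0.62, adjusted p = 0.00499), with a wide spread among the warm arrays. Tig, which encodes the integrin ligand tiggrin, changed by 1.35 (SE 0.18, adjusted p = 7.07e-05).

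The matrix genes that fell were Plod and LanB1. Plod, the lysyl hydroxylase that modifies collagen, had 11.23, 11.31 and 11.54 at 14 °C against 13.12, 13.26 and 12.82 at 30 °C and changed by -1.71 (SE 0.18, adjusted p = 1.1e-05). LanB1, a laminin chain, changed by -1.12 (adjusted p = 0.016). The other laminin chains LanA and LanB2 had -0.72 and -0.63, and the collagen IV genes Col4a1 and vkg -0.69 and -0.92, and these 4 were not called. The prolyl 4-hydroxylase PH4alphaEFB, a member of this list, had -0.20 (adjusted p = 0.344), unlike its relatives PH4alphaSG1 and PH4alphaNE1 above. Mmp1, a metalloproteinase gene, had 1.86 with an adjusted p of 0.0831.

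Of 21 genes for integrins and adhesion 5 were called higher and 1 lower, with a median of 0.13. Integrins are pairs of alpha and beta chains that tie the cell to the matrix. scb, which encodes the alpha chain PS3, had 10.57, 10.20 and 10.15 at 14 °C against 7.05, 8.16 and 7.57 at 30 °C, a change of 2.71 (SE 0.31, adjusted p = 1.85e-05), while 1 of its other probes had 1.08 and was not called. Itgbn, the second beta chain of the fly, had 8.96, 9.64 and 9.95 against 5.66, 8.24 and 7.82 and changed by 2.28 (SE 0.63, adjusted p = 0.0129). Without 30 °C replicate 1 the change of Itgbn was 1.49 (adjusted p = 0.058), without 14 °C replicate 3 its adjusted p was 0.0507, and a fit of the 6 arrays alone gave 0.0616, so that the call was lost each time. Cool and warm arrays did not overlap in either gene, with the widest spread for Itgbn at 30 °C.

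Further calls in this group were *if*, the alpha chain PS2 (1.17, adjusted p = 0.0107), and the adaptors between integrins and actin Pax (1.22, adjusted p = 0.000957) and rhea, the talin gene (1.20, adjusted p = 0.000438). mys, the main beta chain, and the adaptors Vinc and Ilk had changes of 0.07, 0.15 and 0.04 and were not called. shg, which encodes E-cadherin of cell-cell contacts, had 6.79, 5.90 and 6.85 at 14 °C against 8.59, 7.83 and 8.21 at 30 °C and changed by -1.69 (SE 0.48, adjusted p = 0.0139). The adjusted p of shg was 0.0691 without 14 °C replicate 2 and 0.0506 without 30 °C replicate 1.

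Genes for PDGF/VEGF and FGF ligands and their receptors were looked at after the values had been seen. Of 9 measured genes 4 were called higher and 1 lower. Pvf2 and Pvf3 encode ligands of Pvr, the receptor that guides and sustains blood cells. Pvf2 had 14.66, 15.12 and 14.57 at 14 °C against 10.43, 12.41 and 12.12 at 30 °C, a change of 3.13 (SE 0.52, adjusted p = 0.000403). Pvf3 had 10.999, 11.77 and 11.56 against 5.92, 8.52 and 8.90 and changed by 3.66 (SE 0.74, adjusted p = 0.00164). The warm arrays spread over about 2 and 3 units in these genes, and the cool arrays lay above all of them. Pvr itself had a change of -0.02.

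The FGF ligand gene bnl, known for guiding tracheal branches, had 7.90, 7.93 and 7.78 at 14 °C against 5.22, 5.02 and 4.41 at 30 °C and changed by 2.98 (SE 0.24, adjusted p = 1.26e-06). The groups were separated by more than 2 units. The calls for the FGF ligand ths (1.58, adjusted p = 0.0458, and 0.0626 with the replicate number as a block) and the FGF receptor htl (-1.66, adjusted p = 0.0489) rested on weak signals. Only 2 arrays of the brighter temperature and none of the other were well above background for either gene, and arrays of htl overlapped. Without 14 °C replicate 1 the change of ths was 0.93, and without 30 °C replicate 2 that of htl was -0.97 (adjusted p = 0.213).

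**Figure D4:**
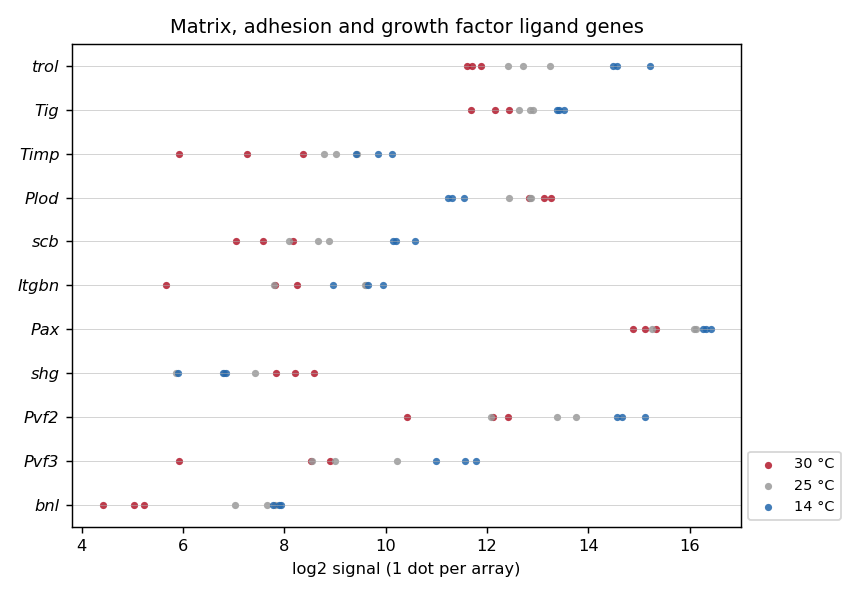
Log2 signal on each lacZ RNAi array (horizontal axis, 1 dot per array, 3 per temperature) for matrix, adhesion and growth factor genes (vertical axis). Blue dots of 14 °C lie to the right of red dots of 30 °C for trol, Tig, Timp, scb, Itgbn, Pax, Pvf2, Pvf3 and bnl and to the left for Plod and shg, and the grey dots are the arrays at 25 °C.

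In the group of JAK/STAT pathway members and ETS factors, 3 of 17 genes were called higher and 2 lower, and the median change was -0.10. This pathway carries signals from cytokines to the transcription factor Stat92E. Socs36E, a target and inhibitor of the pathway, had 14.38, 15.14 and 14.99 at 14 °C against 12.40, 13.56 and 13.34 at 30 °C, a change of 1.74 (SE 0.35, adjusted p = 0.00177). *et*, which encodes a receptor that dampens the pathway, had 6.57, 7.07 and 7.45 against 10.77, 9.46 and 10.52 and changed by -3.22 (SE 0.32, adjusted p = 6.48e-06). The 2 inhibitors thus moved in opposite directions, each without overlap between the temperatures.

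Su(var)2-10, the fly's PIAS protein and also an inhibitor of the pathway, fell by 1.35 (adjusted p = 1.53e-05). The cytokine gene upd3 had 1.36 with an adjusted p of 0.116, and the receptor gene dome and the kinase gene hop had 0.33 and -0.42, neither called. Stat92E itself had -0.88, with an adjusted p of 0.00033 but less than 2-fold. Of the ETS factors, Ets21C had 11.62, 11.79 and 11.99 at 14 °C against 9.80, 9.28 and 9.92 at 30 °C and changed by 2.14 (SE 0.22, adjusted p = 7.82e-06), and Ets96B by 1.76 (SE 0.37, adjusted p = 0.0022). pnt had 0.24 (adjusted p = 0.772), and its signal of 13.92 on 30 °C replicate 2 stood more than 2 units below the other warm arrays.

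Ecdysone is the steroid that times moulting, and its receptor switches on a cascade of nuclear receptors. Of 15 genes of this response 3 were called higher and 1 lower, with a median of 0.22. Hr4 had 8.99, 8.37 and 7.80 at 14 °C against 5.33, 4.31 and 5.83 at 30 °C and changed by 3.23 (SE 0.44, adjusted p = 7.75e-05). Other probes of Hr4 gave 2.32, also called, and -0.42, not called. Blimp-1, a repressor in the same cascade, changed by 1.42 (SE 0.24, adjusted p = 0.000505) and Hr39 by 1.19 (SE 0.23, adjusted p = 0.00105), the latter by 0.95 without 30 °C replicate 2. The receptor genes EcR and usp had 0.28 and 0.01 and were not called. Cyp18a1, which inactivates ecdysone, fell by 1.14 (adjusted p = 0.0164), with 1 of 3 arrays well above background at 14 °C. Its call was lost with normexp (-0.24, adjusted p = 0.18), when arrays were scaled to the 75th percentile (a change of -0.89 with an adjusted p of 0.103) and without 14 °C replicate 1, 30 °C replicate 2 or 30 °C replicate 3 (adjusted p = 0.0635, 0.0594 and 0.0538).

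The V-type ATPase pumps protons into lysosomes and other compartments. Of its 20 genes 3 were called higher and 0 lower, 17 had a change above 0 and the median was 0.49. The calls were the paralogous genes of subunit A, the part of the complex that binds ATP. Vha68-2 had 15.31, 15.50 and 15.62 at 14 °C against 14.42, 14.20 and 14.59 at 30 °C and changed by 1.07 (SE 0.25, adjusted p = 0.00423), or by 0.97 without 30 °C replicate 2. Vha68-1 had 11.14, 11.23 and 11.25 against 9.46, 10.36 and 9.75 and changed by 1.35 (SE 0.21, adjusted p = 0.0002). Vha68-3 changed by 1.62 (SE 0.46, adjusted p = 0.0141), and its call was lost with normexp (0.31, adjusted p = 0.0559), with the replicate number as a block in the 6 arrays alone (adjusted p = 0.0949) and without 14 °C replicate 1, 30 °C replicate 1 or 30 °C replicate 3 (adjusted p = 0.0526, 0.0642 and 0.0623). Most other subunits moved by less than 2-fold, for example Vha44 by 0.88 (adjusted p = 0.000545) and Vha13 by 0.84 (adjusted p = 0.00125).

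Lipid genes were called higher for 6 of 22 and lower for 1, with a median of 0.53. Lip4 had 12.31, 12.47 and 12.30 at 14 °C against 6.53, 9.64 and 7.95 at 30 °C and changed by 4.32 (SE 0.61, adjusted p = 0.000107). bmm, the triglyceride lipase of fat droplets, had 13.50, 13.89 and 13.77 against 12.03, 12.60 and 12.36 and changed by 1.39 (SE 0.20, adjusted p = 0.000104), while its other probes had 0.70 and 0.91 and were not called. The cool arrays were higher throughout for these genes, and the warm arrays of Lip4 spread over 3 units. eas and Pcyt1, both of phospholipid synthesis, rose by 1.68 and 1.38 (adjusted p = 0.000196 and 2.37e-05).

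Calls of the desaturases, which place double bonds in fatty acids and so keep membranes fluid, went both ways and did not hold under every alternative. Desat1 fell by 1.02 (adjusted p = 0.0156). With scaling to the 75th percentile or with the deposited log2 matrix, 0 genes of the lipid list were called lower. Desat2 rose by 1.15 (adjusted p = 0.0368), but its arrays nearly touched, with 8.03, 8.29 and 8.38 at 14 °C against 6.76, 8.07 and 6.42 at 30 °C. With the replicate number as a block its adjusted p was 0.0514. The call of Desat2 was lost in 13 of 19 alternatives, with normexp (0.76) among them.

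Genes of amino acid breakdown gave 2 calls higher and 6 lower among 22, with a median of -0.34. Tat, described above, rose, and so did CG3999 of the glycine cleavage system, which was at least 8.28-fold higher, although normexp gave CG3999 a change of 0.65, not called. Among those that fell, CG31075, an aldehyde dehydrogenase gene, had 11.99, 11.82 and 12.03 at 14 °C against 14.65, 13.78 and 13.90 at 30 °C and changed by -2.16 (SE 0.25, adjusted p = 1.78e-05). Its cool arrays lay close to each other and apart from the warm ones. arg, the arginase gene, fell by 1.66 (adjusted p = 0.00769) and GstZ1, of tyrosine breakdown, by 1.61 (adjusted p = 1.3e-05), so that enzymes of the path that Tat opens moved in both directions.

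Of 10 genes for the breakdown of branched-chain amino acids 1 was called lower, 9 had a change below 0 and the median was -0.50. Bcat, the transaminase that starts this path, had 13.78, 14.06 and 14.15 at 14 °C against 15.01, 15.90 and 15.62 at 30 °C and changed by -1.51 (SE 0.31, adjusted p = 0.00182). BckdhB, of the dehydrogenase complex at the next step, had -0.82 (adjusted p = 0.00181), below the 2-fold limit.

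Transporter genes included 3 of 20 called higher and 4 lower, with a median of -0.08. Orct2, an organic cation transporter gene, had 16.88, 16.27 and 16.66 at 14 °C against 13.63, 13.75 and 13.73 at 30 °C and changed by 2.90 (SE 0.23, adjusted p = 8.54e-07). CG7888, an amino acid transporter gene, had 9.01, 8.90 and 7.98 against 4.57, 7.29 and 5.39 and changed by 2.88 (SE 0.68, adjusted p = 0.00487). JhI-21, also for amino acids, moved the other way, with 13.54, 14.13 and 14.06 against 15.38, 15.74 and 15.46 and a change of -1.62 (SE 0.38, adjusted p = 0.00425). For all of these the temperatures did not overlap. The sugar transporter gene sut1 fell by 1.31 (adjusted p = 0.00289), and Ncc69, which carries sodium, potassium and chloride, was at least 5.79-fold lower, although normexp gave it a change of -0.58.

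Immune genes of the Toll and Imd pathways were called higher for 9 of 32 and lower for 3, with a median of 0.45. The cecropin genes CecA1, CecA2 and CecC rose by 3.38, 2.97 and 2.04 (adjusted p = 1.78e-05, 1.78e-05 and 0.000185). CecA1 and CecA2 are close copies, so that a probe of one may bind transcripts of both. DptA and DptB, the diptericin genes, fell by 2.12 and 2.00 (adjusted p = 0.00031 and 0.000296), but with normexp DptA had -0.85 and was not called. PGRP-LB and pirk, inhibitors of the Imd pathway, rose by 2.11 and 1.88 (with normexp PGRP-LB had 0.78 and was not called), while Rel, its transcription factor, had 0.39 (adjusted p = 0.0797).

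The tubulin gene betaTub97EF had 15.52, 15.34 and 15.46 at 14 °C against 11.21, 12.42 and 12.43 at 30 °C and changed by 3.42 (SE 0.34, adjusted p = 6.48e-06). In the same list of 9 measured genes 2 were called higher and 0 lower. alphaTub67C rose by 1.89 (adjusted p = 0.000493), but with normexp it had 0.70 and was not called. betaTub56D and alphaTub84B, the abundant isoforms, had -0.17 and -0.08 and were not called. cib, which binds monomeric actin, rose by 3.42 (SE 0.21, adjusted p = 1.82e-07), with 12.33, 12.57 and 12.75 at 14 °C against 8.87, 9.40 and 9.12 at 30 °C. The actin genes Act5C and Act42A had 0.02 and -0.05.

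Smaller groups held single calls of note. Among 28 genes of insulin, TOR and adipokinetic hormone signalling 3 were called higher and 1 lower. Akh, the hormone that mobilises stored energy, rose by 2.69 (SE 0.30, adjusted p = 1.4e-05), and Sesn, an inhibitor of TOR, fell by 1.62 (adjusted p = 0.00013). Mef2 rose by 1.68 with an adjusted p of 0.0475, but its call was lost in 11 of 19 alternatives. Its adjusted p was 0.0643 with the replicate number as a block, and without 30 °C replicate 2 its change was 1.13 (adjusted p = 0.188). Among 21 genes of blood cell identity 1 was higher and 2 lower, namely drpr, the engulfment receptor (2.22), Hml, the clotting factor hemolectin (-1.72), and the scavenger receptor Sr-CI (-1.12). With normexp Hml had -0.95, and without 14 °C replicate 1 Sr-CI had -0.92, neither of them called. Of 21 genes of DNA damage and checkpoints 1 was higher and 2 lower.

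Several large groups contained few calls or none. None of 78 cytoplasmic ribosomal protein genes was called (3 had an adjusted p below 0.05), and their median change was 0.01. None of 23 genes of ribosome biogenesis, of 16 genes of messenger RNA 3' end processing, of 20 genes of the tricarboxylic acid cycle and of 8 genes of the CCT chaperonin was called either, with 6, 4, 3 and 4 genes below an adjusted p of 0.05. The medians of these groups were 0.18, -0.02, -0.05 and 0.61. All 8 CCT genes had a change above 0, and with scaling to the 75th percentile 3 were called higher, with a median of 0.87. Of 85 genes of oxidative phosphorylation 1 was called (Cox11, -1.16), of 65 mitochondrial ribosomal protein genes 1 was called higher and 2 lower, and of 32 proteasome genes 1 was called higher, Prosbeta3 with a change of 1.93 (SE 0.20, adjusted p = 6.88e-06). Of 10 clock genes 1 was called, Pka-R2, by 1.35, while per had 1.10 with an adjusted p of 0.0501.

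For genes with several probes, parts of a gene could be set side by side. Of 3055 genes with at least 2 compared probes, 388 had at least 2 called ones, and in 13 of those (3.35%) probes were called in opposite directions. For trol, 5 probes rose by 1.90 to 3.15 and 1 fell by 2.11 (adjusted p = 3.08e-06), the last from a mean of 8.47 at 30 °C to 6.36 at 14 °C. The names of the arrays' design assigned that probe to the same transcript form as 2 of the rising ones.

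Svil, the supervillin gene, had 3 probes called higher, by 1.83 to 2.66, and 1 called lower, by 1.50. The falling probe and 2 of the rising ones carried different gene numbers in the array's design, which now map to 1 gene, and the same holds for the probes of CG42335. Other probes of Svil had -0.77, -0.94, -1.22 and 0.54 and were not called. In Dbp80, an RNA helicase gene, the probe designed on one transcript form rose by 1.69, whereas both probes designed on another form fell by 1.31 and 1.90. CG45049 had probes that rose by 1.75 and 1.68 and a probe that fell by 1.44, all assigned to 1 form. Its other probes, of the same form, had -0.41 to -0.90 and were not called. Hcf, a chromatin cofactor gene, had a rise of 1.76 and a fall of 1.27, and its probes not called had -0.94 and -0.34. With normexp the rising probe of Hcf had 0.86 and that of CG42335 0.20, and neither was called. The latter was also lost in a fit of the 6 arrays alone (adjusted p = 0.0541), and only 1 array at 30 °C was well above background for it. Which exons these probes cover was not analysed here.

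**Figure D5:**
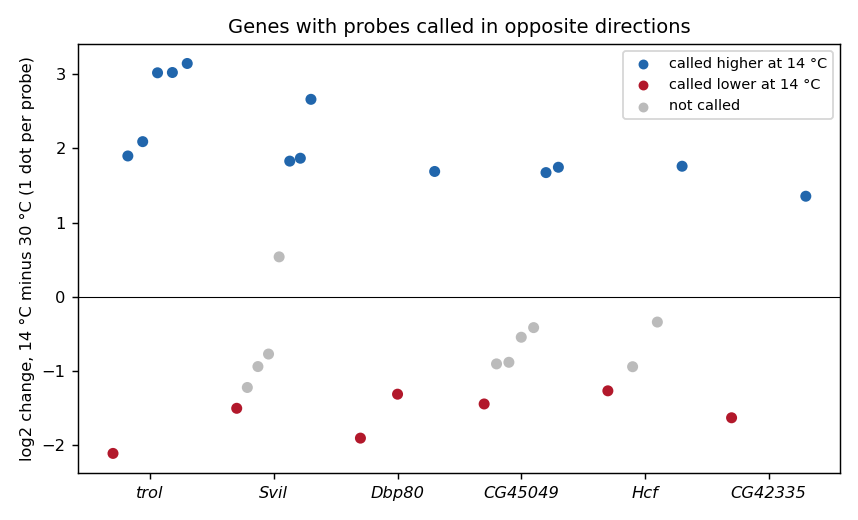
Change between 14 and 30 °C on the log2 scale (vertical axis, 1 dot per probe) for the 6 genes with the largest gap between probes called in opposite directions. trol has 5 probes called higher and 1 called lower, and CG42335 has 1 of each, of which the rising one was not called with normexp.

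Calls were also set against the order of genes along the chromosomes. Where neighbouring genes of the RefSeq order were both measured (7449 pairs), a neighbour of a gene called higher was called higher too in 14.5% of cases, against 8.61% over all neighbours. For genes called lower the shares were 12.4% and 9.67%. Without pairs whose spans overlap (5748 pairs) the shares were 14.0% against 8.6% and 12.9% against 9.56%. These shares are a description with no test, and related genes that lie together may bind each other's probes.

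Runs of at least 3 neighbours called alike numbered 12 in the higher and 7 in the lower direction. The longest was a run of 5 genes called lower, CG31928, CG33128, CG31926, CG31661 and CG18131, by 1.66 to 2.49. Except for CG33128 (6.04), their means at 14 °C were low, with 2.28, 3.28, 2.48 and 3.82 in that order. The lowest signals counted above background on those arrays were 2.526 to 2.947, so the size of these falls is uncertain. The small heat shock protein genes Hsp26, Hsp67Ba, Hsp23 and Hsp27 formed a run of 4. Among the rises, Tsp42Eb, CG30160, Tsp42Ec and Tsp42Ed formed a run of 4, with tetraspanins, which organise proteins in the membrane, at 3 of its places. With normexp Tsp42Eb had 0.84 and Tsp42Ec 0.77 and were not called, and Tsp42Ed was lost without 14 °C replicate 2 or 30 °C replicate 1 (adjusted p = 0.0513 and 0.0565), so that this run was broken. Anp was followed by CecA1 and CecA2, which also encode antibacterial peptides, and Pvf2 and Pvf3 lay beside Ugt307A1, whose change was 0.30 with normexp and not called. The run of Fs, scb and ItgaPS4 joined a pair of integrin alpha chains that rose by 2.71 and 1.98 with Fs, the follistatin gene, at 1.01.

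The same temperatures were also compared in cells with H2Av RNAi, on other arrays. There, CG13694 changed by 6.49, PH4alphaSG1 by 6.31, Anp by 4.97 and Tat by 4.45, and Hsp23 by -4.86 and mspo by -4.42. Values for nompB (2.81), CG34033 (2.98), Gfat1 (-2.97) and Cib2 (-2.83) were smaller than in the control cells, but none of these differences passed a test of the interaction between temperature and RNAi. That test gave 85 of 20738 probes (0.41%), of which 44 were among those called in the control cells.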

How the data were processed

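Total RNA labelled with Cy3 had been hybridised to 18 single-colour Agilent arrays, 3 for each of 6 groups. Per the file headers, the deposited spot intensity is the Feature Extraction processed signal, background-subtracted and spatially detrended, with a surrogate for the lowest values. The authors also deposited a matrix of quantile-normalised log2 values, and which signal entered it is not stated. Deposited flags gave spots well above background and outliers, and 0 columns of values were left unused. Of 45020 spots 1417 were controls and were left out, and outlier spots (42 to 78 per array) were dropped. No spot was saturated, and the spots of a probe were summarised by their median. The processed signal was taken as log2 and quantile normalised over 18 arrays. Group means were fitted to 18 arrays with limma 3.58.1 in R 4.3.3, with Benjamini-Hochberg adjustment over 20738 probes. The script was tested on simulated data.

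Symbols came from the gene number in the array's design through a RefSeq table, and 60.6% of probes had one. Its assembly differs from that of the design, so only names and gene order were used. Named genes were drawn from the 12 largest rises and falls with separate groups, the largest bounds and up to 4 called and 2 uncalled members of each list. Genes the study names and the genes with opposite probes were further sources, and others were chosen after their values were seen. Not every list, list member or gene that the study names is given here, and pst is among those left out. The lists and members were chosen with earlier results of these data known. Same-numbered arrays at 14 and 30 °C deviated together (r = 0.259, 0.198 and 0.209), so the numbers may pair the samples. A fit with the number as a block was run as an alternative, and values are from the fit without it unless stated. Other alternatives were another scaling, background correction, filter, threshold, array weights and leaving out each array. The number of arrays limits the precision.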

Additional observations from a re-analysis of the deposited data

Results flagged for a closer look

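For 44 probes called in the control cells, the change from 30 to 14 °C differed between H2Av RNAi and lacZ RNAi. The test was that of the interaction between temperature and RNAi (limma, adjusted over 20738 probes). The 4 genes given here had the lowest adjusted p among those with a symbol. The lacZ RNAi change enters both the call and this test. CG2811 was lower at 14 °C in lacZ RNAi cells, by 2.34, and had a change of 1.33 in H2Av RNAi cells, a difference of 3.68 (SE 0.436, adjusted p = 0.0021). CG42335 also had opposite signs, with -1.63 and 1.50 and a difference of 3.13 (SE 0.409, adjusted p = 0.00441), on the probe that fell in the control cells. SPH93, which encodes a relative of serine proteases, had -3.29 and 0.10, a difference of 3.39 (SE 0.467, adjusted p = 0.00608). CG3634 had -2.15 and 0.31, a difference of 2.46 (SE 0.322, adjusted p = 0.00441). These genes were taken after the values had been seen, and each RNAi and temperature group lay on its own slide.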

How the results depend on the processing

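Of 258 called probes named here or in the lists, 153 kept their call under each alternative in which they were tested, 138 of them under 19 and 15 under 18, since the filter on both groups left those 15 out, and 0 probes reversed. The count of 4205 called probes (2037 higher, 2168 lower) became 2204 (1106 and 1098) with normexp, 2477 (1228 and 1249) with the deposited log2 matrix and 6984 (3364 and 3620) with no minimum fold. Leaving out 1 array gave 3562 to 4235 called, 1659 to 2102 higher and 1903 to 2196 lower. The 13 genes with probes called in opposite directions became 8 with normexp, 8 with the deposited matrix, 53 with no minimum fold and 23 with array quality weights, and 11 to 16 with 1 array left out. The 85 probes with an interaction became 132 with normexp and 2400 with array quality weights, whose estimate stopped before convergence, and 50 to 96 with 1 array left out, the lowest without 14 °C replicate 2. The cause was not tested. When arrays were scaled to their 75th percentile, the median change of all probes was 0.118, with 2269 higher and 1768 lower. With the replicate number as a block, 4357 probes were called (2128 higher, 2229 lower). A fit of the 6 arrays alone, without the block, gave 3565 calls, of which 3444 were shared with the 4205. The block in the 6 arrays alone gave 3509, of which 3341 were shared with the 4205. Among named genes the block over all arrays ended only the calls of Desat2, Mef2 and ths. Signals near background limit the folds of weakly expressed genes, many of which were not called with normexp.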

Other observations

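Further gene families were described after the values had been seen, so that their counts are no test. They stand beside 9.15% of all genes called higher at 14 °C and 10.1% called lower. Counts with normexp stand beside fewer calls in all. There, 1106 of 20738 probes were called higher and 1098 lower, against 2037 and 2168 in the main fit. The piRNA pathway silences transposons in the germ line with small RNAs. Of 32 measured genes of this pathway 11 were called lower at 14 °C and 0 higher, with a median change of -0.41, and under normexp background correction 6 were called lower. zuc, the nuclease that cuts piRNA precursors, had 9.81, 9.87 and 9.97 at 14 °C against 12.22, 12.64 and 12.32 at 30 °C, a change of -2.51 (SE 0.17, adjusted p = 2.64e-07, limma). rhi, a relative of heterochromatin protein HP1 that marks piRNA clusters, had 9.17, 8.43 and 8.38 against 10.98, 11.40 and 10.33 and changed by -2.24 (adjusted p = 0.000224). The temperatures did not overlap in either gene. piwi had -1.17, but its call was lost with normexp (-0.39), with the replicate number as a block in the 6 arrays alone (adjusted p = 0.157) and without 14 °C replicate 1, 14 °C replicate 2 or 30 °C replicate 2 (adjusted p = 0.0599, 0.0876 and 0.107).

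Of 51 cytochrome P450 genes 8 were called higher and 11 lower, or 4 and 6 with normexp. Those called included Cyp6a2 (2.53), Cyp4d2 (-3.86), Cyp6g2 (-3.38) and Cyp6a23 (-2.44), each well above background on all 6 arrays. Of 33 glutathione transferase genes 6 were higher and 5 lower (4 and 3 with normexp). Of 28 tetraspanin genes 9 were higher and 3 lower (7 and 1 with normexp), and of 16 serpin genes 3 were higher and 0 lower. Of 31 odorant and gustatory receptor genes 8 were higher and 7 lower, or 2 and 6 with normexp, and Or1a, well above background on all 6 arrays, rose by 3.73. For proline, P5CS of its synthesis was at least 13.6-fold higher at 14 °C (with normexp its change was 1.06), while P5cr of the last step of that synthesis had 13.22, 13.02 and 12.85 against 14.42, 14.34 and 14.31 and fell by 1.33. Of 5 inducible Hsp70 and Hsp68 genes 4 were called lower, and their copies are so alike that probes may bind several of them. None of 20 genes of cytosolic aminoacyl-tRNA synthetases was called, with a median of -0.11.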
